A study of Oryza sativa with 10 samples.

Results

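Chromatin sites that were open in dark-grown rice seedlings, in seedlings given abscisic acid (ABA) in light, or in both, were compared. Peaks of the 2 dark and the 2 ABA lists that overlapped by at least 1 bp were merged into 27096 sites, out of 33382 sites over all 10 lists of the series. A site was called gained when both ABA lists and no dark list had a peak there, lost in the converse case, and kept when all 4 lists had a peak. Each class was then divided by the calls in the lists from 24 h of light without hormone. This was done because the ABA seedlings differed from the dark seedlings by light and age as well as by ABA. The assay was ATAC-seq, where a Tn5 transposase inserts sequencing adapters into accessible DNA, on whole seedlings of the rice cultivar YD6. All seedlings germinated in the dark. The dark group was sampled there, the 8 h and 24 h groups after that time in light, and the ABA and IAA groups were in light and were sprayed with the hormone in DMSO shortly before the 24 h time point. The groups in light were thus older than the dark group, and the effects of light and of age cannot be told apart. A mock spray was not analysed here, so the effects of ABA and of the spray cannot be told apart. The IAA group (indole-3-acetic acid, an auxin) had the light and the spray in common with the ABA group and is given beside it.

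Seedlings that germinate in the dark are etiolated, with long shoots and no green chloroplasts, and light turns on the greening program. ABA is the hormone of drought and seed dormancy. It binds PYL receptors, which then hold back PP2C phosphatases, and the freed SnRK2 kinases activate bZIP factors such as ABI5 that bind ABA-responsive elements in promoters. In Arabidopsis the bZIP factor HY5, a promoter of light responses, also acts on ABA signalling genes, so light and ABA meet at shared regulatory DNA.

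The dark lists held 24150 and 25302 peaks and the ABA lists 13278 and 12659. They covered a mean of 6.12 Mb in the dark, 4.86 Mb at 24 h and 3.24 Mb with ABA. The height of a peak is given here as its pileup, the number of tags over the summit, which was solved from the deposited fold and p-value. Within each list the local background had a lowest value, the background floor, which averaged 3.15 tags in the dark, 4.21 at 24 h and 5.45 with ABA. At the floor a peak call needed 11 tags in the dark lists, 13 and 14 at 24 h, 13 in the IAA lists and 16 with ABA. The ABA lists thus needed the most tags for a call and held the fewest peaks. The study describes 2 biological replicates per group, but the 2 lists of a group appeared to have most tags in common. This was inferred from the lists, since reads were not examined. Pileups of the 2 lists differed by far less than sampling noise, with a chi-square per shared site of 0.0792 in the dark and 0.0114 with ABA. Each group was therefore counted as 1 sample. Between dark and ABA lists this value was 0.708 to 0.727, which is also below 1. On average over the shared sites, and relative to the overall level of each list, dark and ABA heights thus showed no excess over sampling noise. All 40 pairs of lists from different groups gave 0.571 to 1.05, so such values were not particular to dark and ABA. The measure leaves out sites called in only 1 list of a pair, and as a mean it does not bear on single sites. No difference below has a replicate check or a p-value, and the Wilson intervals cover counting error only.

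As called, far more sites were lost than gained with ABA in light against dark. There were 10769 lost sites (39.7% of all sites), 644 gained sites (2.38%) and 11415 kept sites (42.1%). Of the sites that changed, 94.4% were lost (95% Wilson interval 93.9% to 94.8%), and 47.2% of the 22817 sites with a peak in both dark lists were among them. At 24 h of light without hormone 26.3% of those dark sites had no call, and this share was 24.9% at 8 h and 18.2% with IAA. These counts moved with the processing. At a common height on the scale of shared sites, explained further on, 6894 sites were lost and 1249 gained, and with all lists cut to the same number of peaks, which evens out the classes by its construction, 2626 were lost and 2629 gained. The remaining 4268 sites were mixed, and 3110 of these had a peak in 1 dark list and in no ABA list. The comparisons with ABA, 24 h, 8 h and IAA used the same dark lists, so their values are given side by side only.

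Of the lost sites, 5196 (48.2%) had no peak in either 24 h list, so the loss was already seen without ABA in seedlings that differed from the dark by light and age. A further 4461 (41.4%) still had a peak in both 24 h lists, and 1112 had a peak in 1 of them. Over all 27096 sites, 32.9% had no peak at 24 h and 60% had a peak in both lists. The gained sites were divided in a similar way, with 249 (38.7%) already open at 24 h, 351 (54.5%) with no peak there and 44 with a peak in 1 list. Kept sites were also open at 24 h in 10377 cases (90.9%), and 676 (5.92%) had no peak at 24 h although they were called in the dark and with ABA.

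**Figure D1:**
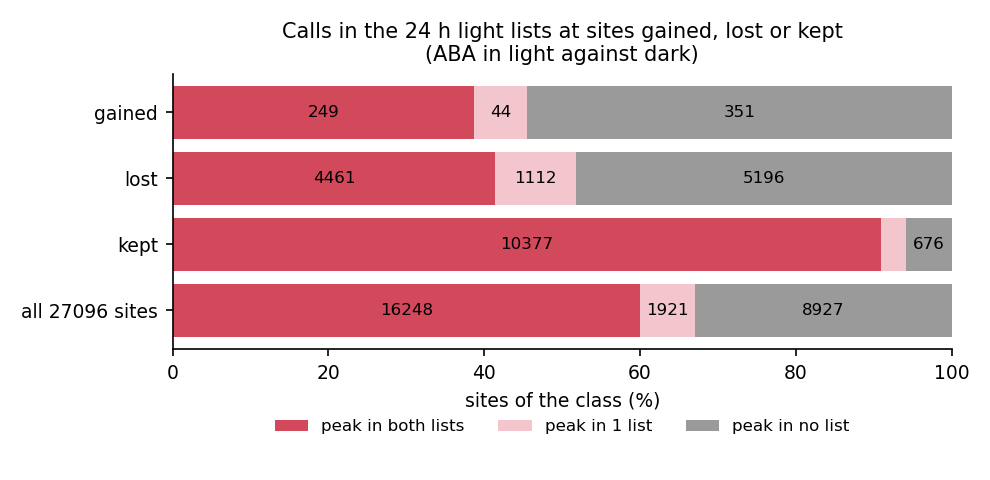
Share of the gained, lost, kept and all sites (horizontal axis, percent) with a peak in both, 1 or no list at 24 h of light, with the number of sites printed in each segment above 5%. The gained and lost bars hold large red (peak in both lists) and grey (no peak) segments, 249 and 351 sites in the gained bar and 4461 and 5196 in the lost bar, while 10377 of the 11415 kept sites were open at 24 h.

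Lost sites that were open at 24 h were mostly open in the other light groups too. Of these 4461 sites, 3632 (81.4%) had a peak in both IAA lists and 3417 (76.6%) in both 8 h lists. These shares were 69% and 63% over all sites. Among sites open at 24 h they were 97.4% and 93.9% of kept and 57.8% and 59.4% of gained sites. The other way, 506 (11.3%) of the 4461 lost sites lacked a peak in both IAA lists. Calls in both lists of 8 h, 24 h and IAA, with none in ABA, were found at 2997 lost sites (27.8%, 27.0% to 28.7%). Calls in both lists of 8 h, 24 h and IAA were found at 83.8% of kept and 15.2% of gained sites. Such patterns were counted by class only, not over all sites. A call at the lost sites needed more tags with ABA than in the other light groups. The part of that threshold in the absence of an ABA peak was not tested.

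Lost sites with no peak at 24 h were lost more widely. Of these 5196 sites, 3516 (67.7%) had no peak at 8 h and 2929 (56.4%) had none with IAA, against 31.6% and 24.1% of all sites. Among sites with no peak at 24 h, these shares were 83.5% and 62.7% of gained and 54.3% and 24.9% of kept sites. No peak in any list of 8 h, 24 h, IAA and ABA was found at 2319 lost sites (21.5%, 20.8% to 22.3%), which were called in the dark only. No peak at 8 h, 24 h and with IAA was found at 30.6% of gained and 1.06% of kept sites. In contrast, 1631 lost sites (31.4% of those without a peak at 24 h) had a peak in both IAA lists. These 1631 sites were thus called again in sprayed, illuminated seedlings of the other hormone.

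The share of lost sites differed with the height in the dark. Because the ABA lists needed 16 tags at the floor, the 24 h lists 13 and 14 and the dark lists 11, a weak dark site at an unchanged number of tags could be lost, and more readily with ABA than at 24 h. The shares below hold that part, which was not separated. Among sites with a mean dark pileup of 11 to below 16 tags, 84.7% were lost (82.9% to 86.3%), and 57.9% had no peak at 24 h. At 21 to below 26 tags these shares were 52.6% and 25.4%, and at 31 to below 41 tags 9.66% and 3.08%. Of the 828 sites with 51 or more tags in the dark, 6 (0.725%) were lost and 1 had no peak at 24 h. The highest dark sites were almost all kept. Among lost sites of 11 to below 16 tags, 24.6% were open at 24 h, and this share was 74.0% among those of 31 to below 41 tags.

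**Figure D2:**
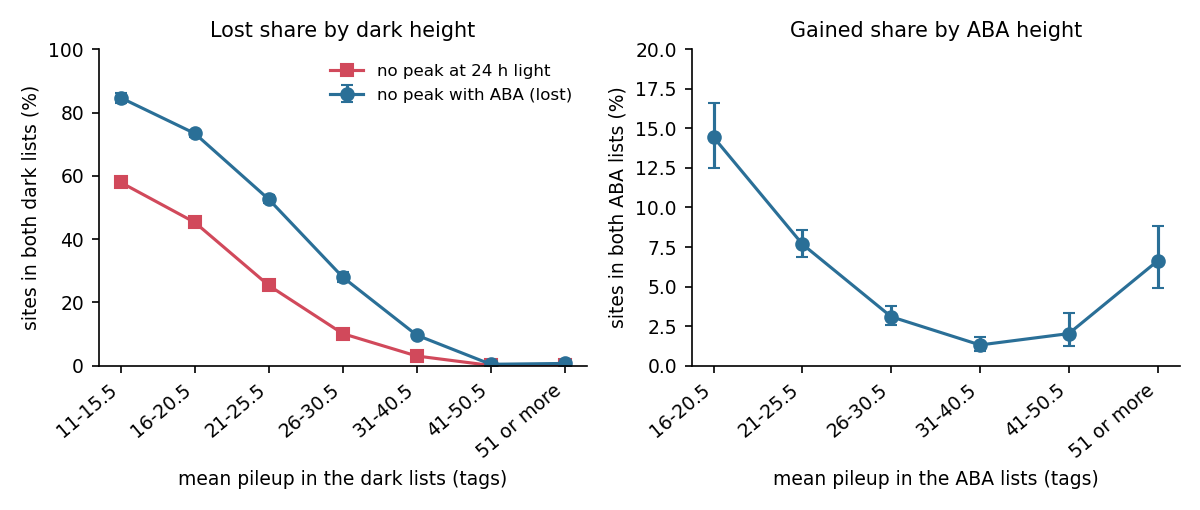
Left, percent of sites in both dark lists with no ABA peak (blue, lost) and with no 24 h peak (red) by mean dark pileup in tags. Right, percent of sites in both ABA lists that were gained, by mean ABA pileup. Bars are 95% Wilson intervals. The lost share fell from 84.7% to below 1% with height, while the gained share fell from 14.4% to 1.31% and was 6.62% among the highest sites.

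The strongest lost sites were named by their dark pileup over the floor. Site 1 of those open at 24 h lay on chromosome 2, 28721489 to 28721770 (MSU7.0). It had 77 and 80 tags in the dark, 83 and 85 at 8 h, 90 and 88 at 24 h and 89 and 90 with IAA. It had no peak with ABA, where a call needed 61 and 59 tags because the local background there was 6.50 floors. Its neighbour 587 bp away, 28720786 to 28720901, was site 1 of those with no peak at 24 h. This neighbour had 63 and 65 tags in the dark, 66 in each 8 h list and 64 and 65 with IAA. Its peaks were 100 to 116 bp wide, and no peak of any list was narrower than 100 bp. Both sites were lost with ABA, and the first of them was called at 24 h.

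Next among the lost sites open at 24 h were 3 on a high background or beside a kept site. In the dark, a chromosome 10 site (5265428 to 5265622) had 78 and 79 tags, with 108 and 103 at 24 h and 105 and 107 with IAA, and it had no peak at 8 h or with ABA, where 87 and 83 tags were needed. A chromosome 5 site (29907772 to 29907881) had 71 and 72 dark tags, 80 and 84 at 8 h, 87 in each 24 h list and 80 and 81 with IAA, with 79 and 76 needed with ABA. At both of these sites the ABA lists needed more tags than the dark lists had. On chromosome 12, the site from 20641586 to 20641700 had dark pileups of 54 and 58, 55 and 62 with IAA, 164 and 166 at 8 h and 169 and 170 at 24 h. The 8 h and 24 h values belong to peaks 7890 and 7896 bp wide that also covered the kept site 137 bp away, while the dark and IAA peaks here were 104 to 114 bp wide. Such a 24 h peak over more than 1 site was behind 90 (2.02%) of the lost sites open at 24 h. A lost site without these features was site 5, on chromosome 11, 24010537 to 24010741. It had 49 and 53 tags in the dark, 47 and 46 at 8 h, 33 and 39 at 24 h and 36 in each IAA list, and no ABA peak where 23 and 22 tags were needed. Its dark pileup was more than the tags needed with ABA by a wide margin, and its pileup at 24 h lay between.

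Of the lost sites with no peak at 24 h, a chromosome 6 site (24006002 to 24006241) was called in the dark alone, with 39 and 41 tags, where ABA lists needed 44 and 43. Each dark list had 40 tags at 16557275 to 16557506 on chromosome 5, with 28 in each 8 h list and 30 and 26 with IAA. Dark pileups were 43 and 40 at 1611551 to 1611821 on chromosome 9, with 26 and 30 tags with IAA, with no peak at 8 h. At the sites on chromosomes 5 and 9 the dark pileup was above that of every other group with a call, and the tags needed with ABA were fewer than it. Site 5, on chromosome 2, 12006635 to 12006806, stood on the background floor, with 39 tags in each dark list and 26 and 25 with IAA. It had no peak at 8 h, at 24 h or with ABA, where 16 tags were needed.

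**Figure D3:**
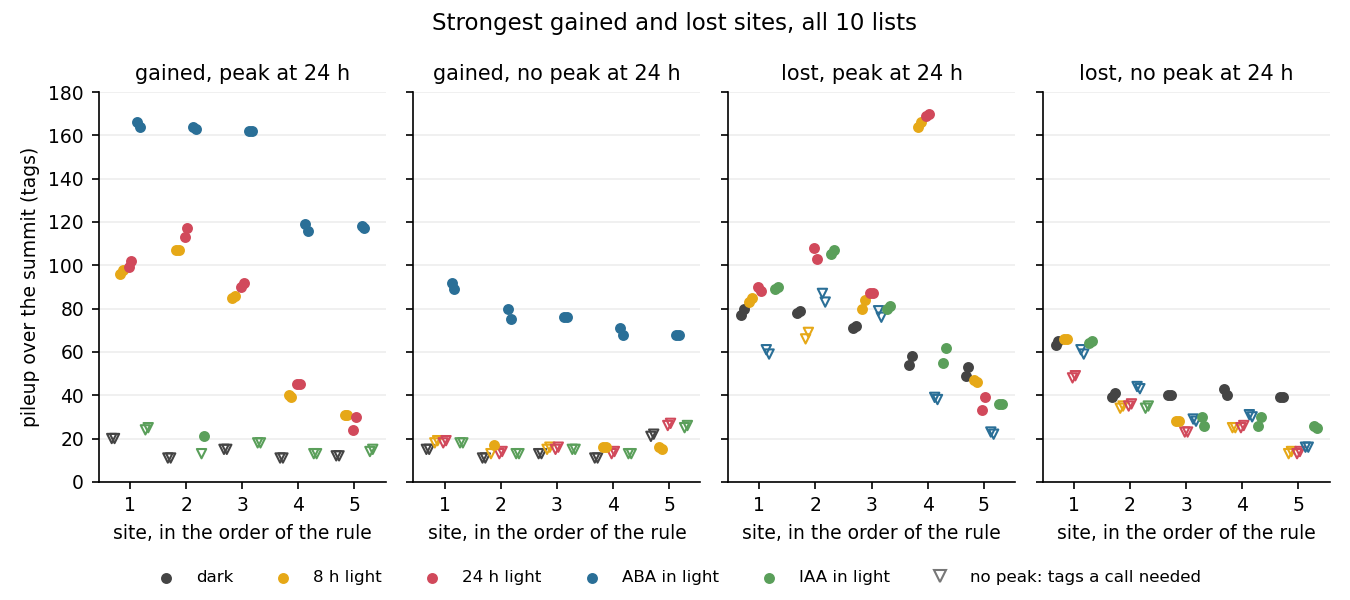
Pileup over the summit (tags) in each of the 10 lists at the 5 strongest sites of each changed class, in the order of the rule. Filled points are called peaks, and open triangles mark lists with no peak, at the number of tags that a call needed there. ABA points (blue) stand above all other groups at the 10 gained sites, which a high ABA pileup chose. At several lost sites the ABA triangles lie near the dark points.

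Gained sites were few and mostly weak. The median pileup was 23 tags in each ABA list, close to the 17 and 16 tags that a call needed at the median gained site, and 28 and 27 tags at kept sites. Of the 644 gained sites, 197 (30.6%, 27.2% to 34.3%) were called in no other group and 98 (15.2%) in both lists of 8 h, 24 h and IAA. No peak at 8 h, 24 h and with IAA was found at 21.5% of lost and 1.06% of kept sites. Peaks in both lists of these groups were found at 27.8% of lost and 83.8% of kept sites. Among the 249 gained sites open at 24 h, 148 (59.4%) were open at 8 h and 144 (57.8%) with IAA, against 63% and 69% of all sites. Of kept sites open at 24 h these were 93.9% and 97.4%, and of lost sites open at 24 h 76.6% and 81.4%. Among the 351 with no peak at 24 h, 38 (10.8%) were open at 8 h, 95 (27.1%) were open with IAA and 220 (62.7%) had no IAA peak. Of all sites, 24.1% had no IAA peak, and of lost sites with no peak at 24 h, 56.4% had none.

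The gained share was not lowest among the highest ABA sites. It was 14.4% at 16 to below 21 tags and 1.31% (0.954% to 1.81%) at 31 to below 41 tags, and 6.62% (4.94% to 8.83%) among the 634 sites with 51 or more ABA tags. These 42 strong gained sites, a limit chosen after the values were seen, had a peak in both lists at 24 h in 27 cases and none at 24 h in 15. In the IAA lists, 36 of the 42 (85.7%, 72.2% to 93.3%) had no peak, against 270 of the other 602 gained sites (44.9%) and 24.1% of all sites. The interval treats the sites as independent, but 24 of the 42 lay in 11 short runs of neighbouring gained sites. No site of these runs was called in both IAA lists, so the share rests on fewer separate places than 42. Without the strong sites, 222 gained sites were open at 24 h and 336 (55.8%) were not.

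The ABA pileup at the strong sites was compared with that at 24 h as a description only, since a high ABA pileup chose them. At the 20 strong sites with a peak at 8 h and 24 h and none with IAA, the ABA pileup in tags was 2.89 times that at 24 h (median, quartiles 2.44 and 3.41, range 1.08 to 4.35). The 24 h pileup at these sites was 1.09 times that at 8 h. At kept sites with 1 peak in all lists, the ABA pileup in tags was 0.92 times that at 24 h (median). The ABA background floor was 1.30 times that at 24 h, so ratios of ABA to 24 h are lower on the floor scale. At the 4 strong sites with a peak at 8 h, 24 h and with IAA, the ABA pileup was 1.22 times that at 24 h (median, range 1.04 to 3.39). Strong sites without a clear excess included one on chromosome 3, 13387763 to 13387921, with 69 and 67 tags at 24 h, 71 in each ABA list and 77 and 73 with IAA. Another was on chromosome 11, 18757460 to 18757664, with 52 and 54 tags at 24 h, 55 in each ABA list and 50 and 52 with IAA. The strong sites were thus of more than 1 kind, and the excess over 24 h was not seen at all of them.

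The 2 strongest sites on chromosome 3 were neighbours. The site from 19245351 to 19248198 had 96 and 98 tags at 8 h, 99 and 102 at 24 h and 166 and 164 with ABA, and the site from 19244061 to 19244606 had 85 and 86, 90 and 92, and 162 in each ABA list. Neither had a peak in the dark or with IAA, where calls needed 15 to 25 tags. A chromosome 11 site (12122337 to 12123511) had 107 tags in each 8 h list, 113 and 117 at 24 h and 164 and 163 with ABA, and 21 tags in 1 IAA list. All 3 were thus open at 8 h and 24 h of light and higher still with ABA. The IAA seedlings, also in light, had no peak or a weak one in 1 list there. Another on chromosome 11 (12266471 to 12266726) had 40 and 39 tags at 8 h, 45 in each 24 h list and 119 and 116 with ABA. On chromosome 10, 8910130 to 8910446 had 31 tags in each 8 h list, 24 and 30 at 24 h and 118 and 117 with ABA. Both lacked a peak in the dark and with IAA.

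Gained sites with no peak at 24 h had lower ABA pileups. The strongest lay on chromosome 10, 8908080 to 8908424, with 92 and 89 tags with ABA and no peak in any other list. The chromosome 2 site from 27933060 to 27934315 had 80 and 75 tags with ABA and 17 tags in 1 8 h list. On chromosome 6, 696429 to 696669 had 76 tags in each ABA list and no peak elsewhere. At these 3 sites a call at 24 h needed 13 to 19 tags, well below the ABA pileup. A chromosome 4 site (20688157 to 20688510) had 71 and 68 tags with ABA and 16 in each 8 h list. On chromosome 1, 39416443 to 39417684 had 68 tags in each ABA list and 16 and 15 at 8 h. Neither had a peak in the dark, at 24 h or with IAA, so a weak call at 8 h was the only other one.

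Kept sites were compared by height at the 11023 sites with 1 peak in each of the 4 lists, and the answer turned on the scale. With each pileup divided by the background floor of its list, the median log2 ratio of ABA over dark was -0.81, with 8425 sites (76.4%) at least 1.5-fold lower with ABA and 1 site (0.00907%) at least 1.5-fold higher. With each pileup divided by the median pileup at sites called in all 10 lists, the median was 0.08, with 157 sites lower and 700 higher. In tags, the median pileup at sites called in all lists was 30.5 in the dark and 28.5 with ABA, while the floor was 1.73 times higher with ABA. Which scale stands for the number of open chromosomes cannot be told from peak lists. Kept sites were therefore ordered relative to their own median, by which 455 (4.13%) were at least 1.5-fold higher and 303 (2.75%) at least 1.5-fold lower. These shares were not compared with those that counting error alone gives. The mean chi-square per shared site between dark and ABA lists was 0.708 to 0.727, below 1. It does not bear on single sites, and these shares cannot be read as counts of changed sites.

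**Figure D4:**
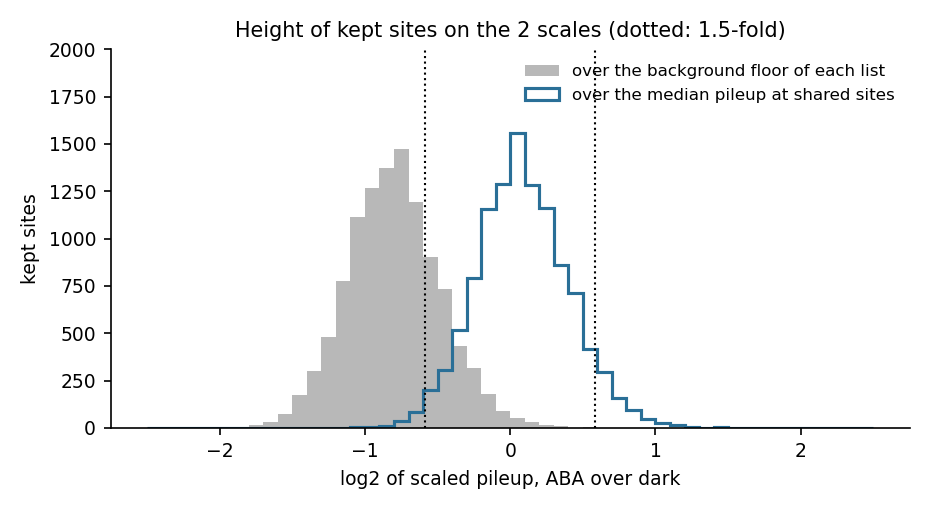
Number of kept sites by the log2 ratio of scaled pileup, ABA over dark, with pileups over the background floor (grey) or over the median pileup at shared sites (blue line). The 2 distributions have the same spread and are centred at -0.81 and 0.08, and the dotted lines mark a 1.5-fold difference in either direction.

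The kept sites that differed most with ABA tended to the same side in the other light groups. At the 260 higher sites with 1 peak in all 10 lists, the median log2 ratio to dark relative to all kept sites was 0.72 with ABA, 0.44 at 24 h, 0.42 at 8 h and 0.43 with IAA. At the 280 lower sites it was -0.63, -0.29, -0.25 and -0.27 in that order. The ABA values chose these sites and all 4 comparisons used the same dark lists, so these medians are a description only. Of the 455 higher sites, 70 (15.4%) had no peak at 24 h and 98 (21.5%) none at 8 h, while 2 of the 303 lower sites (0.660%) had no peak at 24 h. Of all kept sites, 5.92% had no peak at 24 h and 7.71% none at 8 h.

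The kept site with the largest relative difference lay on chromosome 4, 30321142 to 30321779. It had 13 and 15 tags in the dark, 22 and 26 at 8 h, 22 and 23 at 24 h, 23 and 21 with IAA and 84 and 80 with ABA. The mean was 14 tags in the dark (exact 95% Poisson interval 7.65 to 23.5) and 82 with ABA (65.2 to 102), a ratio of 5.95 relative to the median kept site. It was the 1 site that was at least 1.5-fold higher on the floor scale. The ABA lists alone were high here, and the other light groups lay close to each other.

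Of the other 4 high kept sites, 3 had at 24 h a pileup close to that with ABA. A chromosome 10 site (82220 to 82622) had dark pileups of 15 and 13, 29 and 31 at 8 h, 40 and 38 at 24 h, 37 and 35 with ABA and 41 and 38 with IAA. On chromosome 1, 84303 to 84574 had dark pileups of 15 and 19, 20 and 22 at 8 h, 40 and 38 at 24 h, 44 and 43 with ABA and 21 in each IAA list. By the gene positions in the supplementary tables of the study, it begins next to the end of LOC_Os01g01160 and lies 763 bp before the start of LOC_Os01g01170. The first of these sites was high in all 24 h, ABA and IAA lists, whereas the second was high at 24 h and with ABA and stayed near the dark values with IAA. In the dark, a chromosome 6 site (4761794 to 4762414) had 19 and 21 tags, with 24 and 23 at 24 h, 26 and 24 with IAA and 47 and 44 with ABA. On chromosome 3, 8012940 to 8013176 had dark pileups of 18 and 16, 34 and 33 at 24 h, 39 and 37 with ABA and 32 and 31 with IAA. Its Poisson intervals overlapped, with 9.90 to 27.2 tags in the dark and 26.9 to 52.2 with ABA. The chromosome 6 site was the exception, with pileups at 24 h and with IAA nearer to those in the dark than to those with ABA.

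**Figure D5:**
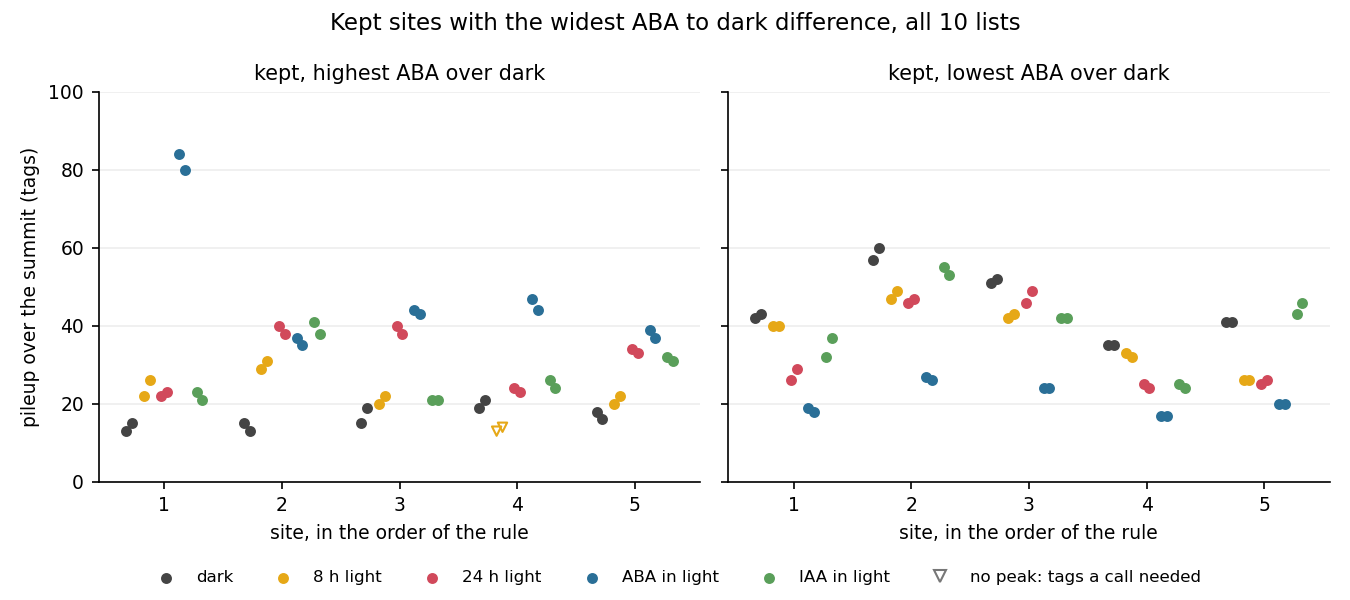
Pileup over the summit (tags) in each of the 10 lists at the 5 kept sites with the highest (left) and the 5 with the lowest (right) ratio of ABA to dark, with open triangles where a list had no peak. ABA points (blue) stand alone at 84 and 80 tags at site 1 on the left. They are the lowest of all groups at the 5 sites on the right, which a low ABA to dark ratio chose.

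At the 5 lowest kept sites the ABA pileup was below that of every other group. A low ratio of ABA to dark chose these sites, so this is a description only. A chromosome 1 site (23187012 to 23187212) had dark pileups of 42 and 43, 40 in each 8 h list, 26 and 29 at 24 h, 32 and 37 with IAA and 19 and 18 with ABA. Its mean was 42.5 tags in the dark (30.7 to 57.3) and 18.5 with ABA (11.1 to 29.1), a ratio of 0.442 relative to the median kept site. It lay 36 bp before the start of LOC_Os01g40980. On chromosome 6, 13162511 to 13163149 had dark pileups of 57 and 60, 46 and 47 at 24 h and 27 and 26 with ABA. On chromosome 2, 2561179 to 2561605 had dark pileups of 51 and 52, 46 and 49 at 24 h and 24 in each ABA list. Both were closer to their dark pileup at 24 h than with ABA. On chromosome 8, 27634003 to 27634349 had dark pileups of 35 in each list, 25 and 24 at 24 h and with IAA, and 17 in each ABA list. On chromosome 3, 17849700 to 17850145 had dark pileups of 41 in each list, 25 and 26 at 24 h, 43 and 46 with IAA and 20 in each ABA list, so 24 h and IAA differed there. At the chromosome 8 site the Poisson intervals of dark (24.4 to 48.7) and ABA (9.90 to 27.2) overlapped. The same held at this chromosome 3 site, with 29.4 to 55.6 in the dark and 12.2 to 30.9 with ABA.

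OsbZIP1, a rice homolog of HY5, was looked up outside the naming rule. A kept site 173 bp before the start of its gene, LOC_Os01g07880, lay on chromosome 1, 3812242 to 3812622. It had 27 and 29 tags in the dark, 30 and 34 at 8 h, 24 and 26 at 24 h, 25 and 24 with ABA and 24 and 23 with IAA. The site was thus open in every group, within a narrow range of tags.

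The excess of lost over gained sites was next asked at a common height. A peak then counted only where its pileup over the scale of its list reached what the most demanding of the compared lists needed at the floor. With the floor as the scale, which asked for 11 and 12 tags in the dark and 20 and 19 with ABA, 11101 sites were lost and 566 gained (95.1% lost). With the median pileup at shared sites as the scale, 18 tags in the dark and 17 and 16 with ABA, 6894 were lost and 1249 gained (84.7%). Loss was the more frequent on both scales, while its size differed between them. The common height levelled the lists at the floor only. At the median lost site with no peak at 24 h, a call needed 18 tags in each ABA list, and this part was not separated. A lost site has no ABA pileup, but the tags that a call needed there limit it, unless the peak was too narrow to be listed. On the floor scale, 9605 lost sites (89.2%) lay at least 1.5-fold above that limit in the dark, and on the scale of shared sites 822 (7.63%) did. On the floor scale a dark call was the more demanding, and 100% of lost sites lay above the limit. The call limits are thus a part of the 89.2%, which was not separated. For gained sites the order was the other way, with 107 (16.6%) on the floor scale and all 644 on the scale of shared sites. The last count was fixed by the call limits, because the tags needed with ABA were at least 1.60-fold above the dark limit on that scale at each gained site, and it says nothing of their signal.

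Lost and gained sites had narrower peaks than kept sites. In the 2 dark lists the median peak width was 160 and 166 bp at lost sites and 267 and 273 bp at kept sites, and in the ABA lists it was 150 and 146 bp at gained sites and 211 and 204 bp at kept sites. Width was compared within a list, since a merged site of 4 lists is wider than one of 2 by construction. The classes also differed in height. Median dark pileups were 19 and 20 tags at lost and 28 and 29 at kept sites. With ABA they were 23 in each list at gained and 28 and 27 at kept sites. Width was not compared at equal height, so it cannot be told apart from height here. Of the gained sites, 20.8% lay within 1 kb of a kept site, against 11.4% of lost, 15.6% of kept and 13.9% of all sites. On the 12 chromosomes, the lost share of sites in both dark lists ranged from 42.8% on chromosome 12 to 49.8% on chromosome 1. The summits of kept sites lay a median of 24.5 bp apart between dark and ABA, and over 50 bp apart at 28.2% of 8894 sites. This share was 24.1% between dark and 24 h, 24.6% between dark and IAA, 29.6% between 24 h and ABA and 29.8% between IAA and ABA. Such distances were thus not particular to dark against ABA.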

How the data were processed

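Peak lists of 10 libraries in 5 groups were analysed, with groups taken from the labels. Per the methods and processing notes, the authors aligned reads to the MSU7.0 japonica genome with Bowtie2 2.3.2, filtered them with SAMtools 1.9 and called peaks per library with MACS2. A shift of reads for the Tn5 cut is not given in the sources used here. The deposited lists hold a score (not used), the fold over background (a ratio), and the −log10 p-value and −log10 q-value of each peak. Outside IAA, the totals of peaks stated by the study are not those of the deposited lists. The deposited lists hold no read numbers, and those stated by the study were not used here.

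Each fold and −log10 p was solved for a whole-number pileup and a local background, for all 200537 peaks to within 0.000203 of the deposited −log10 p. At all 1567 summits shared by a dark and an ABA list, the background in floors was equal within 0.001, so the lists were called against a common control track, whose nature is unknown. The scripts were tested on simulated data. Python 3.11.15, pandas 2.3.3, scipy 1.17.1 and statsmodels 0.14.6 were used.

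Named sites were the 5 with the largest lower pileup over the floor in each changed class, and the 5 kept sites with the largest and the smallest ratio, among sites with 1 peak in each list that holds them. Members, lists and rules were chosen with earlier results of these data known. Motifs and genes near sites were not analysed here, apart from gene positions on chromosome 1 taken from the supplementary tables. Alternatives were a −log10 q of at least 5, equal list lengths, 3 common heights, other overlap, presence and fold rules, and each list left out.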

Additional observations from a re-analysis of the deposited data

How the results depend on the processing

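Lost sites outnumbered gained sites under every alternative except lists cut to an equal length of 12659 peaks, which gave 2629 gained and 2626 lost sites (49.97% lost) and evens out the classes by its construction. That setting gave 895 gained and 1070 lost sites open at 24 h, and 1430 and 1276 with no peak there. A common height on the scale of shared sites or of the strongest 5000 peaks gave 1249 gained and 6894 lost sites (84.7%), with 557 gained sites open at 24 h, 584 gained sites with no peak there and 3110 lost sites with no peak there. The lost share was 95.1% on the floor scale, 95.5% at a −log10 q of at least 5, 93.7% at an overlap of 50% and 92.0% with summits matched within 200 bp, where 376 gained sites were open at 24 h. At that −log10 q, 6915 kept sites were open at 24 h. Kept sites higher with ABA numbered 700 and those lower 157 on the scale of shared sites, 712 and 151 on that of the strongest peaks, and 2967 were lower at a 2-fold limit. Leaving out 1 list gave 683 to 841 gained sites, 10864 to 12907 lost sites, a lost share of 93.0% to 94.6%, and 1 to 2 kept sites higher. No paired analysis was possible because the results come from no test. As replicate block, the first lists alone gave 1044 gained sites, a lost share of 92.0%, 466 gained sites open and 578 not open at 24 h, and 2 kept sites higher. The second lists alone gave 7986 lost and 1078 kept sites with no peak at 24 h, and 2 kept sites higher. Lists of a group appeared to have most tags in common, so these values are not taken to measure the spread between plants. Alternatives for motifs and genes were not run.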

Other observations

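The strong gained sites came in short runs. Of the 42 gained sites with a mean ABA pileup of 51 tags or more, 24 (57.1%) lay in a run of gained sites with gaps of at most 2 kb, against 82 of the other 602 (13.6%). The limit of 51 tags was chosen after the values were seen.

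The 24 sites fell into 11 runs, and no run had a site called in both IAA lists. On chromosome 2, 3 sites from 28863616 to 28866922 had 37 to 42 tags at 8 h, 43 to 47 at 24 h and 102 to 116 with ABA. On chromosome 6, 2 sites from 3273455 to 3275568 had 29 to 33, 26 to 29 and 89 to 98 tags. The run on chromosome 4, 30318057 to 30320363, had 24 to 25 tags at 8 h, 21 to 31 at 24 h and 84 to 91 with ABA, and ended 778 bp from the kept site with the largest relative difference. In each of these 3 runs the ABA tags were far above those at 24 h. The run on chromosome 6 from 27300609 to 27302137 differed, with 28 to 57 tags over its 3 sites with ABA and 50 to 52 at 24 h at the 1 site called there. On chromosome 1, 3 sites from 39414911 to 39418239 had 53 to 68 tags with ABA and no peak at 24 h, with 15 and 16 tags at 8 h at 1 of them, and 3 sites from 7420193 to 7422013 had 27 to 56 tags with ABA and no peak in any other group. The strong site of that last run, 7421341 to 7422013, lay inside LOC_Os01g13300.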
